A study of Mus musculus with 27 samples.

Results

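Ependymal cells are the ciliated epithelium that lines the brain's ventricles. Their nuclei were taken here from single-nucleus RNA-seq libraries of the hippocampi of 27 adult mice, with 1 library per mouse. A nucleus was chosen when it had 200 to 4000 detected genes, at most 5% mitochondrial UMIs (unique molecular identifiers, each a counted molecule), at least 3 of the 7 transcripts Dnah12, Dnah6, Spag17, Foxj1, Tmem212, Ccdc153 and Dnah11, at most 1 UMI in all of the neuronal genes Slc17a7, Gad1 and Gad2, and at most 1 UMI of the oligodendrocyte genes Mog and Mag. This gave 1594 of 221281 nuclei that passed the gene and mitochondrial limits (0.720%), called gated nuclei below. The 7 transcripts chose the nuclei, so their levels are described without a test.

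The mice fell into 6 genotype groups. P301S mice carry human tau with a dementia-linked mutation, expressed from the mouse Prnp promoter, which is active well beyond ependymal cells. Cgas encodes the cytosolic DNA sensor cGAS, and mice kept both copies (+/+), 1 copy (+/-) or none (-/-) in every tissue. The groups without the transgene were Cgas+/+ (5 mice), Cgas+/- (2 mice) and Cgas-/- (2 mice), and each of the same 3 Cgas genotypes was also present with the transgene, in 6 mice: P301S Cgas+/+, P301S Cgas+/- and P301S Cgas-/-. The animals were 16 males and 11 females, and the Cgas+/- and Cgas-/- groups without P301S were all male. Each mouse is a replicate. Libraries held 46091490 to 79484316 UMIs, and the median nucleus of a library held 1926 to 7586. The file headers name Cell Ranger 3.0.2 in 12 libraries, all of males, and 3.1.0 in 15, of which 4 were of males, so software version and sex overlap in large part. The 3′ counts of Cgas (Mb21d1 in the files) did not follow the Cgas genotype. In microglia they averaged 27.5 ± 2.10 CPM (UMIs of a gene scaled to a common library total, SD, n = 5) in Cgas+/+ and 23 ± 3.79 (n = 2) in Cgas-/- mice, and 34.2 ± 11.3 in P301S Cgas+/+ and 42.4 ± 6.84 (n = 6 each) in P301S Cgas-/- mice. The sources used here do not place the deleted part against the counted 3′ end, so these counts do not check the label. No gated barcode was shared between mice.

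Motile cilia beat through rows of axonemal dynein motors on the outer microtubules and are steered by a central pair of microtubules with radial spokes. Cells that carry many of them switch on a shared programme under the regulators Gmnc, Mcidas and Myb and the transcription factors Foxj1, Trp73, Rfx2 and Rfx3. In the brain, ependymal cilia move cerebrospinal fluid along the ventricle walls. The choroid plexus, which secretes that fluid, is an epithelium of the same lineage and carries cilia too.

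The 7 transcripts did not pick ependymal nuclei alone. Of the gated nuclei, 418 (26.2%) held at least 3 of 9 choroid plexus markers. The split was sharp, with 850 gated nuclei holding none of the 9 markers, 282 holding 1 and 44 holding 2, followed by 4 with 3, 19 with 4 and 395 with 5 or more. The choroid plexus-marked nuclei had entered almost entirely through Dnah6, Dnah11 and Foxj1, which 99.5%, 98.6% and 83.5% of them held. Dnah12 was detected in 10.8% of them, Spag17 in 12.7%, Tmem212 in 2.63% and Ccdc153 in 0.957%, and 396 of the 418 held exactly 3 of the 7 transcripts. The 7-transcript rule alone therefore gave a mixture of ciliated epithelia. The 1176 gated nuclei with fewer than 3 choroid plexus markers (0.531% of all nuclei) are called ependymal nuclei below, and results are given for them and for all gated nuclei.

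**Figure D1:**
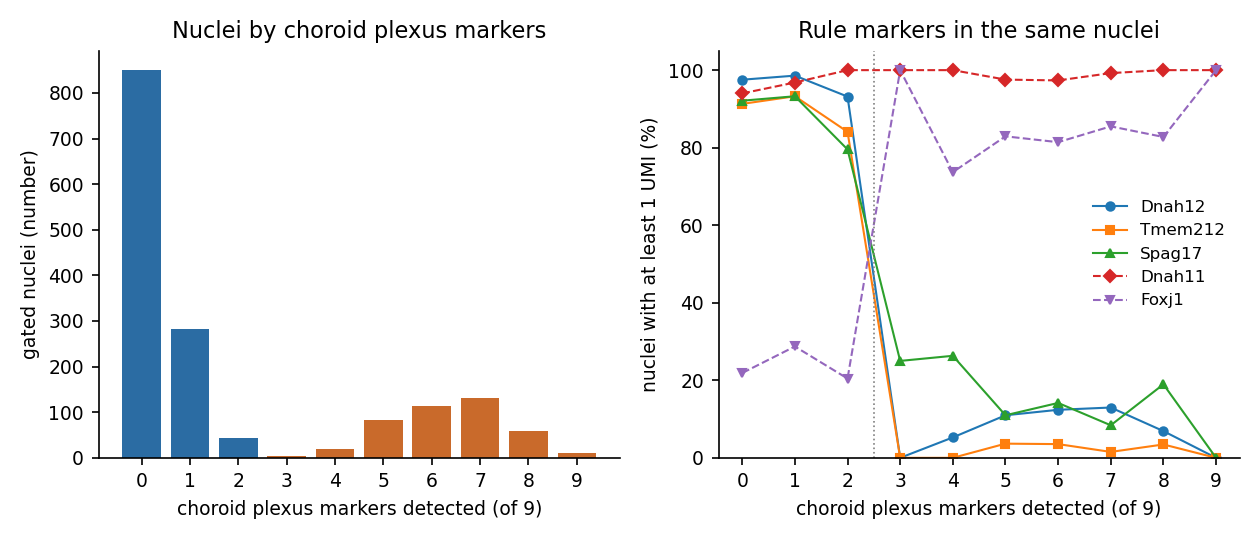
The left panel counts the 1594 gated nuclei by the number of choroid plexus markers detected (0 to 9). The right panel gives, for each number, the percent of nuclei with at least 1 UMI of 5 of the rule's transcripts, with a dotted line at the limit of 3 markers. Spag17 is in 79.5% of nuclei at 2 markers and in 25% at 3, Dnah12 and Tmem212 drop to 0 at 3, and Foxj1 goes from 20.5% to 100%.

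In the ependymal nuclei Dnah12 was detected in 97.6%, Spag17 in 91.9%, Tmem212 in 91.5% and Foxj1 in 23.5%, at a median of 2692 UMIs per nucleus. In astrocytes, which should lack these transcripts, the shares were 0.516%, 0.478%, 0.0747% and 0.478% at a median of 3393 UMIs. Both sets were chosen in part by these transcripts, so the gap follows from the choice. The label was checked on 74 motile cilium genes that the rule did not use. An ependymal nucleus expressed a median of 39 of them (2 to 56), and 1131 nuclei (96.2%) expressed at least 20. The 418 choroid plexus-marked nuclei, at a median of 6620.5 UMIs, also held a median of 27 of the 74, so this count alone does not part ependymal from choroid plexus nuclei. Nuclei just inside the limit, with exactly 3 of the 7 transcripts, numbered 62 among the ependymal nuclei and held a median of 17.5 of the 74 genes. The 463 nuclei just outside, with 2 of the 7 and fewer than 3 choroid plexus markers, held a median of 6, and the 1459 with 2 of the 7 and at least 3 choroid plexus markers a median of 25. At least 3 of 7 astrocyte markers were seen in 284 ependymal nuclei and at least 3 of 8 neuron markers in 661. The nuclei with the highest Scrublet scores in each library were marked as likely doublets, at a rate set by its number of barcodes. They were 199 of the 1176, beside 7.42% of all nuclei, a share that follows from this rate. The marks fell unevenly on the mice: they covered all 24 ependymal nuclei of P301S Cgas+/- replicate 4, all but 1 of 33 in replicate 6 of that group, all but 7 of 26 in Cgas+/- replicate 1 and all but 5 of 15 in P301S Cgas+/+ replicate 2. Among themselves the nuclei formed a series: from the 62 with 3 of the 7 transcripts over 100 with 4, 383 with 5 and 469 with 6 to 162 with all 7, the median number of the 74 other cilium genes went from 17.5 over 35.5, 38 and 41 to 43, the median depth from 2399 to 3130 UMIs and the share of marked doublets from 29.0% to 14.8%. The nuclei with 3 transcripts thus held the fewest other cilium genes and the most marked doublets.

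The ependymal nuclei were unevenly spread over the mice. P301S Cgas+/+ replicate 5 gave 303 of them (25.8%), and P301S Cgas-/- replicate 6 gave no gated nucleus among 9762, for which the exact 95% interval, of counting error only, reaches 0.0378%. The 26 other mice gave at least 5 each and entered the tests of expression. P301S Cgas-/- replicate 1, with 5 ependymal nuclei, stood apart: its summed level of the 74 cilium genes was 7778 CPM, against 25951 to 40559 in the other 25 mice, and its summed level of the neuron markers was 21015 CPM against 2323 to 8537.

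For comparison, 2171 choroid plexus nuclei and 26761 astrocytes were taken from the nuclei outside the rule, each by at least 3 markers of its own type and fewer than 3 of the others. The axonemal dynein heavy chains, the motor subunits that bend the cilium, had the largest median difference of the cilium lists between ependymal and choroid plexus nuclei. Dnah12 (chr14:26693274-26891703, plus strand, GRCm38, the build of mm10) was at 2323 ± 664 CPM (mean and SD over 26 mice) in ependymal nuclei and at 1.34 CPM over all pooled choroid plexus nuclei. Levels of other genes below are given in the same way unless stated otherwise. Dnah12 had been used by the rule, but 9 of the 12 heavy chains listed outside it could be compared too, and all 9 were higher in ependymal nuclei by edgeR's fit with mouse as a block (20 mice), in which 38.5% of all genes were higher and 41.4% lower (79.9% in all). The nuclei had been chosen by detection in the same counts, so these counts describe the 2 sets of nuclei and are not a test of them. The median difference of the 9 was 4.53 on the log2 scale, beside −0.08 for all 2907 genes. Dnah5 was at 582 CPM against 1.01, Dnah10 at 422 against 0.754, Dnah3 at 596 against 11.9 and Dnah7a at 425 against 13.2. Dnah9, an outer-arm chain, was at 1257 ± 268 CPM, but choroid plexus nuclei also held 442 CPM of it, and Dnah7b was at 605 against 454. Dnah8 and Dnah17, heavy chains of the sperm tail, had 4 and 2 UMIs in all 1176 nuclei. The choroid plexus nuclei thus carried part of the heavy-chain set and lacked or nearly lacked the rest.

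The other cilium groups were higher as well, by less. Of the genes for dynein arms, their docking and assembly, 12 of 13 compared were higher in ependymal than in choroid plexus nuclei (median log2 difference 1.76). Ccdc40, which sets the spacing along the axoneme with Ccdc39, was at 153 CPM against 1.59, whereas Wdr78 was at 503 against 598. All 12 central pair and radial spoke genes compared were higher (median 1.79). Hydin, a central pair protein whose loss causes hydrocephalus, was at 1150 ± 241 CPM against 156, and Cfap46, also of the central pair, at 834 against 9.38. Spag16, another of the group, was at 2490 ± 595 CPM (469.6 to 3358 over the 26 mice), and choroid plexus nuclei also held 2055. Of 27 other motile cilium genes, 19 of the 20 compared were higher (median 1.93), among them Wdr49 at 1276 CPM against 1.68 and Rgs22 at 1146 against 19.0, while Lrriq1 was at 850 against 933. Intraflagellar transport and BBSome genes, which serve all cilia, were higher in 13 of 15 by a median of 0.89.

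Regulators of the programme did not share one direction. Of 4 compared, 1 was higher and 2 were lower in ependymal nuclei, beside 38.5% and 41.4% of all genes, so the count does not set them apart. Gmnc, which starts multiciliation, was at 60.4 ± 39.6 CPM in ependymal nuclei and at 1149 in choroid plexus nuclei. Myb, which acts during centriole amplification, was at 73.7 ± 38.3 CPM and had no UMI in choroid plexus nuclei. Rfx3 was at 1033 against 1424, Trp73 at 142 against 150 and Rfx2 at 307 against 166. The early regulators Mcidas and Ccno had 1 and 4 UMIs in all ependymal nuclei. Foxj1 itself was at 97.8 ± 42.5 CPM in ependymal nuclei, or 88.6 CPM when they were pooled. It was at 150 CPM in the 418 choroid plexus-marked nuclei that the rule took in and at 12.6 in the choroid plexus nuclei that it left out, and the rule had used Foxj1 to divide these 2 sets.

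**Figure D2:**
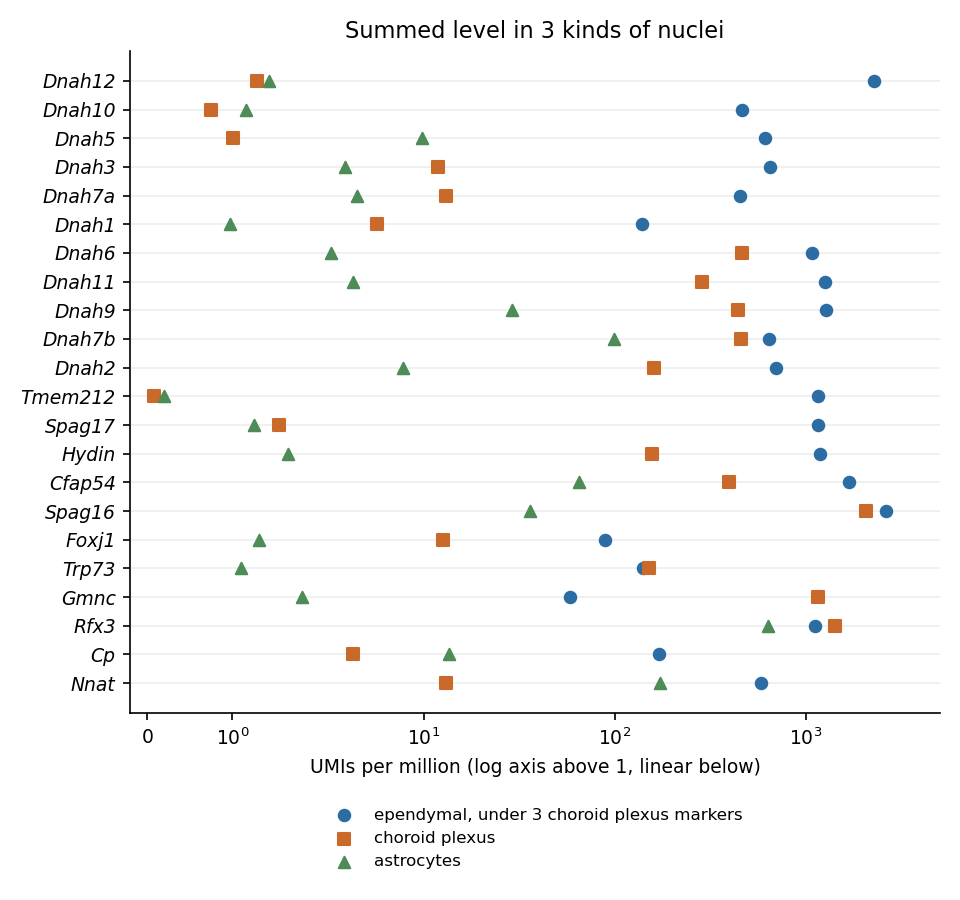
Pooled level in CPM of 22 genes in ependymal nuclei, choroid plexus nuclei and astrocytes, on an axis that is linear near 0 and logarithmic above. Dnah12 stands at over 1000 CPM in ependymal nuclei and under 5 in the other sets, and Spag16 and Rfx3 are high in choroid plexus nuclei too.

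Over all gated nuclei, the choroid plexus-marked ones included, 62.1% of 3455 genes differed from choroid plexus nuclei (29.4% higher, 32.6% lower), and all 8 heavy chains compared were higher by a median of 2.998 on the log2 scale.

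Beyond the lists, the genes with the largest rise over choroid plexus nuclei that was seen in all 20 mice were led by Gm10714 (524 ± 117 CPM against 0.05), 3300002A11Rik (1461 ± 189 against 0.938) and Cdhr3, a cadherin-related protein of ciliated cells (719 ± 156 against 0.222). Levels in this paragraph are means over these 20 mice in both sets of nuclei. Bace2, a protease related to the β-secretase, was at 205 ± 74.3 CPM against 0.0980. The genes that fell furthest were choroid plexus genes: Tmem72 at 1.14 CPM against 986, Htr2c, the serotonin 2C receptor, at 39.3 against 13220, and Trpm3, a cation channel, at 282 against 34341.

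Against astrocytes, which also descend from radial glia, ependymal nuclei differed in 72.4% of 9996 genes (19.3% higher, 53.2% lower, 26 mice). DESeq2 called 2391 of the same genes higher and 3558 lower, and without marked doublets edgeR called 2288 higher and 3355 lower of 9516, so the number of lower genes rests on the method and on these nuclei. All 10 heavy chains compared, all 18 dynein arm genes, all 15 central pair genes and all 24 other cilium genes were higher, by median log2 differences of 4.99 to 6.36 beside −0.43 for all genes. The same 10, 18, 15 and 24 genes were higher over all gated nuclei, in which 56.4% of 10498 genes differed (25.9% higher, 30.5% lower). Glial genes went both ways, with 6 of 20 higher and 12 lower. The glutamate transporter Slc1a3 was at 513 ± 144 CPM against 3012 in astrocytes, and Gfap, the astrocyte filament, at 42.1 against 353. The bicarbonate cotransporter Slc4a4 was at 266 against 2190 and the water channel Aqp4 at 167 against 289. Both were among the 7 markers that chose the astrocytes, so their gap follows in part from that choice, and they are not among the 20. Slc1a2, given as the mean over the 26 mice in both sets, fell from 8718 CPM in astrocytes to 331. Nnat, neuronatin, was higher in ependymal nuclei (649 ± 242 CPM against 172), as were Prickle2, of the planar polarity pathway that aligns cilia (1112 ± 185 against 418), and Cp, ceruloplasmin, which oxidises iron (163 ± 65.0 against 13.6). Ependymal nuclei thus held some glial transcripts below and others above the astrocyte level, beside the cilium genes. Among the most abundant transcripts, Syne1, which links the nucleus to the cytoskeleton, was at 5504 ± 1287 CPM against 1733 in astrocytes and 849 in choroid plexus nuclei, Csmd1 at 6089 ± 829.3 against 1564 and 453, and Dmd, dystrophin, at 3323 ± 513 against 1306 and 142. Npas3 and Zbtb20, transcription factors of the glial lineage, were near the astrocyte level, at 3879 and 4206 CPM against 4778 and 4514. In choroid plexus nuclei they were at 212 and 3731, so Zbtb20 was near the level there too. The neuron marker Kcnip4 (3660 ± 1974 CPM, up to 12386) and Nrxn3 (3549 ± 981) were also more abundant than Dmd. The pooled sum of the neuron markers was 5288 CPM in ependymal nuclei, 3251.5 in astrocytes and 1503 in choroid plexus nuclei. The choice of the latter sets limited markers of other types, so this gap may follow in part from that choice. The source of these transcripts in ependymal nuclei was not tested.

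A short sequence that the rule did not use was more frequent at the starts of several cilium gene lists, and of some other lists, than over all genes. GTTGCC, which is part of the X-box bound by RFX factors, was searched on both strands from 250 bases before to 50 bases after the gene start (RefSeq, GRCm38.p6), and this form was kept after several had been counted. It was present at 27 of the 58 cilium genes outside the rule with an entry (46.6%), beside 3821 of 27025 gene symbols (14.1%). By list it was at 6 of 8 multiciliation regulators (75%), 8 of 11 central pair genes (72.7%), 11 of 22 other cilium genes, 12 of 25 transport and BBSome genes (48%), 4 of 11 dynein heavy chains (36.4%), 4 of 14 dynein arm genes (28.6%) and 1 of 6 rule transcripts (16.7%). Lists of other kinds reached the dynein shares or came near them, with 3 of 8 planar polarity genes (37.5%), 2 of 6 choroid plexus markers and 2 of 6 astrocyte markers (33.3% each), 4 of 14 glial genes (28.6%), 3 of 11 MHC class I genes (27.3%), 1 of 4 neuron markers (25%) and 7 of 31 interferon genes (22.6%). A match is a description of letters and not a bound site. Shown are the 130 bases before the start of the 4 cilium genes with the highest CPM among those with a match in them, with GTTGCC or its complement GGCAAC in capitals, each written 5′ to 3′ on the gene's strand (Spag16 chr1:69826840-69826969, Cfap44 chr16:44394669-44394798, Hydin chr8:110266847-110266976 and Ccdc170 chr10:4482385-4482514, all on the plus strand).
Spag16: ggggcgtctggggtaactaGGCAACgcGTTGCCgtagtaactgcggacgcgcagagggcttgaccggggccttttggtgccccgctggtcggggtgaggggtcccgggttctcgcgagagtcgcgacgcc
Cfap44: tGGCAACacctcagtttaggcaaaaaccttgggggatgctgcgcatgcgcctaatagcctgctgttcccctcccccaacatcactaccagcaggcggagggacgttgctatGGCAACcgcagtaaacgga
Hydin: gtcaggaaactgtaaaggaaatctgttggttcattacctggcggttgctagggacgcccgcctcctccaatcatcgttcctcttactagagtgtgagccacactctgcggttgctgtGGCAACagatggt
Ccdc170: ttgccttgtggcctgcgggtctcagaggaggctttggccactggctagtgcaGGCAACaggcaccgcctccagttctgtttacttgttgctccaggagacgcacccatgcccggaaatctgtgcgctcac

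The share of ependymal nuclei varied widely between mice of the same group. In Cgas+/+ mice it was 0.0654%, 0.180%, 0.401%, 0.668% and 1.14% of filtered nuclei, in Cgas+/- mice 0.325% and 1.36%, and in Cgas-/- mice 0.779% and 1.04%. In P301S Cgas+/+ mice it ran from 0.172% over a median of 0.425% to 2.13%, in P301S Cgas+/- mice from 0.162% over 0.325% to 0.610%, and in P301S Cgas-/- mice from 0% over 0.138% to 0.487%. The P301S Cgas-/- mice were lowest, and every pair of groups overlapped except the pair of Cgas-/- mice with P301S Cgas+/- and P301S Cgas-/- mice. On the scale of log2(percent + 0.01), P301S Cgas-/- mice were lower than P301S Cgas+/+ mice by 2.14 (exact two-sided permutation p = 0.0455, adjusted p = 0.227 over 5 comparisons), and over all gated nuclei by 2.39 (exact p = 0.0368, adjusted p = 0.184). Without P301S Cgas-/- replicate 6, the mouse with none, the difference was −1.43 (exact p = 0.0887). The other 4 comparisons had smaller differences, from −0.998 to 0.585, with adjusted p of 0.267 to 0.504, so none of the 5 passed after adjustment. Without marked doublets the difference for loss of 1 Cgas copy went from −0.757 to −2.03 (exact permutation p = 0.121). Choroid plexus nuclei, counted as in the relation given below, had a mean share of 1.75% in P301S Cgas+/+ mice (0.0286% to 4.72%). In P301S Cgas-/- mice their mean share was 0.190% (0.0307% to 0.531%), so it was lower there too, with overlap. Its part in the ependymal difference for deletion was not tested. Which stretch of ventricle wall a dissection holds was not recorded in the labels.

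**Figure D3:**
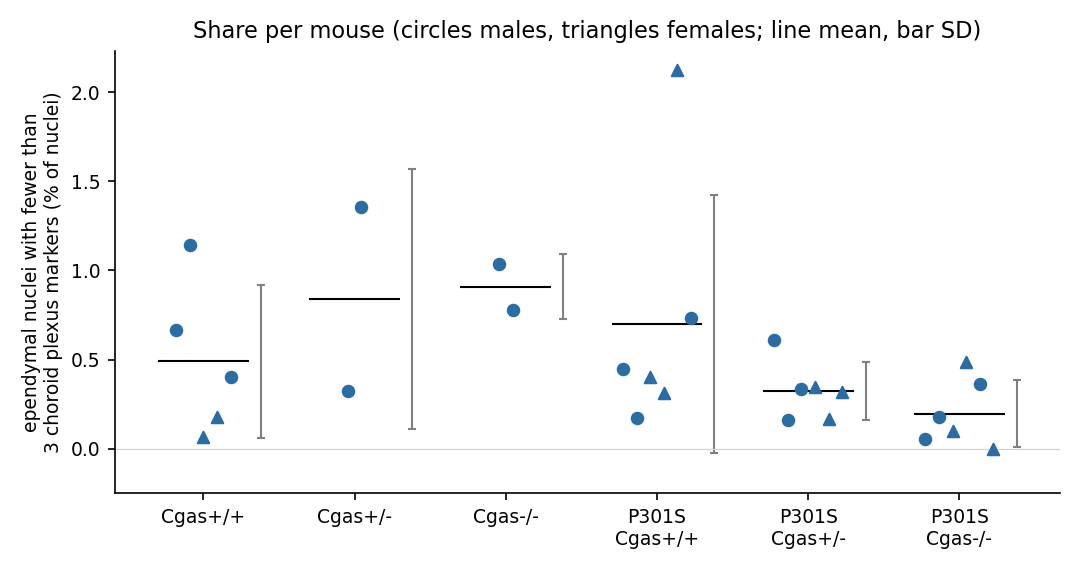
Share of ependymal nuclei among filtered nuclei (percent) in each mouse by genotype group, with circles for males and triangles for females, a line at the group mean and a bar of 1 SD to each side. P301S Cgas+/+ replicate 5 stands at 2.13%, and the P301S Cgas-/- mice lie at 0.487% or lower.

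The tau comparison (P301S Cgas+/+ against Cgas+/+) went in opposite directions in the sexes. P301S Cgas+/+ mice had the higher share in females, by 2.46 on the log2 scale, and the lower share in males, by −0.786 (difference between sexes 3.24, exact permutation p = 0.0600). For all gated nuclei the difference between the sexes was 4.08 (exact p = 0.0600). Within libraries of header version 3.0.2, which were of males, the comparison gave −1.61 (2 against 2 mice, smallest possible exact p = 0.333), and within version 3.1.0 it gave 1.91 (4 against 3 mice, exact p = 0.143). The 18 P301S mice against the 9 others likewise gave −1.89 within version 3.0.2 (6 against 6 mice, exact p = 0.0108) and 0.66 within version 3.1.0 (12 against 3 mice, exact p = 0.527). In version 3.1.0 the only male of each group in the tau comparison was at 0.735% in P301S Cgas+/+ (replicate 6) and at 0.401% in Cgas+/+ (replicate 5), the same direction as the females of that version and the opposite of the 3.0.2 males. With 1 male a group there, sex and version were not separated by a test.

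The ependymal share rose with the choroid plexus share of the same mouse, taken as all nuclei with at least 3 choroid plexus markers that met the rule or the choroid plexus gate, both on the scale of log2(percent + 0.01). Pearson's r was 0.61 (permutation p = 4.2e-04, adjusted 8.4e-04 over 2 relations) and Spearman's rho was 0.63 (p = 5.0e-04) over 27 mice, and r was 0.54 without the 2 mice farthest from the median choroid plexus share. Within P301S mice r was 0.66 (n = 18, permutation p = 0.00131), within the 9 others 0.63 (exact p = 0.0666), within header version 3.0.2 0.59 (n = 12, permutation p = 0.0463) and within 3.1.0 0.66 (n = 15, permutation p = 0.00331). Some mice had a choroid plexus share under 1% (19 mice, r = 0.48, permutation p = 0.0345), and the rest 1% or more (8 mice, r = 0.82, exact p = 0.0111). Both shares have the same denominator, and both tissues lie on the ventricle. The share fell with the library's median UMIs per nucleus at Pearson's r = −0.38 (permutation p = 0.0547) and Spearman's rho = −0.48 (p = 0.0123) over 27 mice. Without the 2 mice farthest from the median depth r was −0.32, and within header versions 3.0.2 and 3.1.0 it was −0.13 and −0.41.

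**Figure D4:**
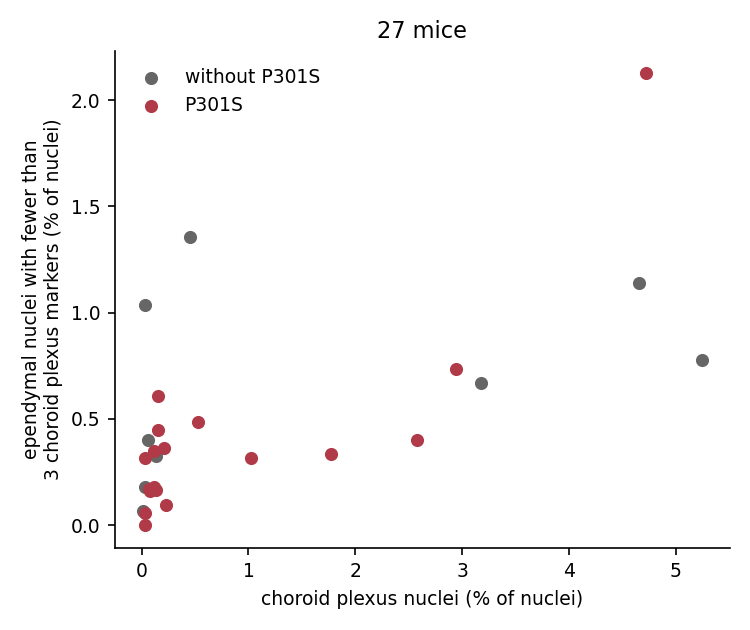
Share of ependymal nuclei (y axis, percent) against the share of choroid plexus nuclei (x axis, percent) in each of the 27 mice, coloured by presence of the P301S transgene. The mice with the most choroid plexus nuclei, P301S Cgas+/+ replicate 5 at 4.72% and Cgas-/- replicate 2 at 5.25%, have ependymal shares of 2.13% and 0.779%.

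No cilium gene passed the test between genotypes. Dnah12 in ependymal nuclei ran from 1744 over a median of 2227 to 3291 CPM in Cgas+/+ mice, from 2003 over 2368 to 3241 in P301S Cgas+/+, from 1815 over 2581 to 3409 in P301S Cgas+/- and from 587 over 2561 to 3358 in P301S Cgas-/- mice, whose lowest value was replicate 1. The mice of all 4 groups overlapped. Tmem212 ran from 708 over 1065 to 1318 CPM in Cgas+/+, from 719 over 1106 to 1290 in P301S Cgas+/+, from 825 over 1111 to 1419 in P301S Cgas+/- and from 176 over 860 to 1369 in P301S Cgas-/- mice, and Foxj1 from 41.7 over 88.1 to 133, from 51.8 over 105.5 to 204, from 67.1 over 95.6 to 137 and from 0 over 94.0 to 138. Their groups overlapped in the same way. The rule had used Dnah12, Tmem212 and Foxj1 to choose the nuclei, so this overlap is no result. Of the 57 dynein, central pair and other cilium genes outside the rule that were tested in the tau comparison, Spag16 among them, none passed. The median log2 differences of the 4 lists ran from −0.04 to 0.11 beside 0.00 for all genes. edgeR's quasi-likelihood test found no gene past an adjusted p of 0.05 (0.0% of 2832) in the tau comparison, in which 52 genes had an unadjusted p under 0.05 and DESeq2 also called 0. In simulated counts with the same libraries the test called 40 of 83 2-fold changes (48.2%) and 69 of 73 4-fold changes (94.5%). These are shares of the changed genes that passed the low-count filter, and those that the filter removed were not counted. Smaller changes were not simulated. The closest genes were Syt11, which regulates vesicle traffic (151.7 ± 75 CPM in Cgas+/+ and 75.2 ± 14.3 in P301S Cgas+/+, log2 difference −1.12 ± 0.31 SE), Setd5 (0.76 ± 0.25) and Nell1, an extracellular signalling protein (−1.48 ± 0.48), all with an adjusted p of 0.9997. Setd5 ran from 142 over 234 to 251 CPM in Cgas+/+ mice and from 295 over 319 to 639 in P301S Cgas+/+ mice. It was picked for its small p in this same comparison, so the lack of overlap is no result. In P301S Cgas-/- mice it lay at 137.98 to 392.

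Comparisons of Cgas dose within P301S mice share the P301S Cgas+/+ mice with the tau comparison. Deletion (P301S Cgas-/- against P301S Cgas+/+) gave 0.0% called of 2832 genes by edgeR, 144 with an unadjusted p under 0.05, and 0 by DESeq2. The 4 cilium lists had median log2 differences of −0.14 to −0.31 beside 0.01 for all genes, and 9 of the 57 genes were positive. All 7 neuron markers tested were positive in the same comparison, with a median of 0.85, and P301S Cgas-/- replicate 1 held both the highest neuron-marker sum and the lowest cilium sum given above. Their part in the result was not tested. Adarb2 (147.5 ± 87.8 CPM in P301S Cgas+/+, 42.2 ± 33.6 in P301S Cgas-/-, log2 difference −1.78 ± 0.51 SE) and Ctif (1.13 ± 0.34) were closest, at an adjusted p of 0.928. Loss of 1 copy (P301S Cgas+/- against P301S Cgas+/+) gave 0.0% called as well, 65 genes with an unadjusted p under 0.05 and 0 by DESeq2, with Plpp3, a lipid phosphatase of glia, closest (−0.95 ± 0.27, adjusted p = 0.999). Over all gated nuclei these 3 comparisons also called 0 of 3502 genes (0.0%), with 34, 167 and 31 genes at an unadjusted p under 0.05.

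Across all 17 P301S and 9 other mice, with sex and Cgas copies as covariates, edgeR again called 0.0% of 4043 genes, with 121 at an unadjusted p under 0.05 and 0 by DESeq2 (for gated nuclei, 0.0% of 5061 and 70). Here the test called 65 of 87 simulated 2-fold changes (74.7%) among the genes that passed the low-count filter. Among the lists were 40 interferon-stimulated genes, the antiviral genes that cGAS signalling can induce. Only 6 of the 40 passed the low-count filter, on which the 17 P301S mice weigh more than the 9 others, so genes high in P301S mice were the ones more likely to be tested and the direction of the 6 is no result. Their unadjusted p are not given for the same reason, and none of the 6 passed the adjustment.

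Oasl2 (chr5:114896936-114912234, plus strand), an oligoadenylate synthetase-like gene, ran from 0 over 4.01 to 23.7 CPM in Cgas+/+ mice, was at 0 and 7.19 in Cgas+/- and at 0 and 16.9 in Cgas-/- mice. It ran from 0 over 46.8 to 156 in P301S Cgas+/+, from 0 over 24.8 to 77.4 in P301S Cgas+/- and from 0 over 73.1 to 184 in P301S Cgas-/- mice. The groups overlapped, since each P301S group also held a mouse at 0. Oasl2 is one of the 6 genes, lay at the edge of the filter (it was tested in 24 of the 26 fits that left out 1 mouse) and passed it through the P301S mice, so its difference and p are not given as a test.

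Summed over the 40 genes, the interferon list lay between 125 and 417 CPM in the 9 mice without P301S and between 117 and 1821 in the 17 P301S mice, of which 12 were above 417. The 417 CPM were 24 UMIs in Cgas+/- replicate 1. Close above it lay P301S Cgas+/+ replicate 4 at 423 (43 UMIs) and P301S Cgas+/- replicates 2, 3 and 4 at 439, 439 and 430 (17, 43 and 41 UMIs). The count of 12 thus rests in part on few UMIs. By group the medians were 324 CPM in Cgas+/+, 689 in P301S Cgas+/+, 434 in P301S Cgas+/- and 782 in P301S Cgas-/- mice, and P301S Cgas-/- mice spanned the whole range from 117 to 1821. Within header version 3.0.2 the 6 P301S mice lay between 117 and 956 and the 6 others between 241 and 417, and within version 3.1.0 the 11 P301S mice lay between 352 and 1821 and the 3 others between 125 and 355. P301S mice were thus higher on the whole and overlapped with the others.

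**Figure D5:**
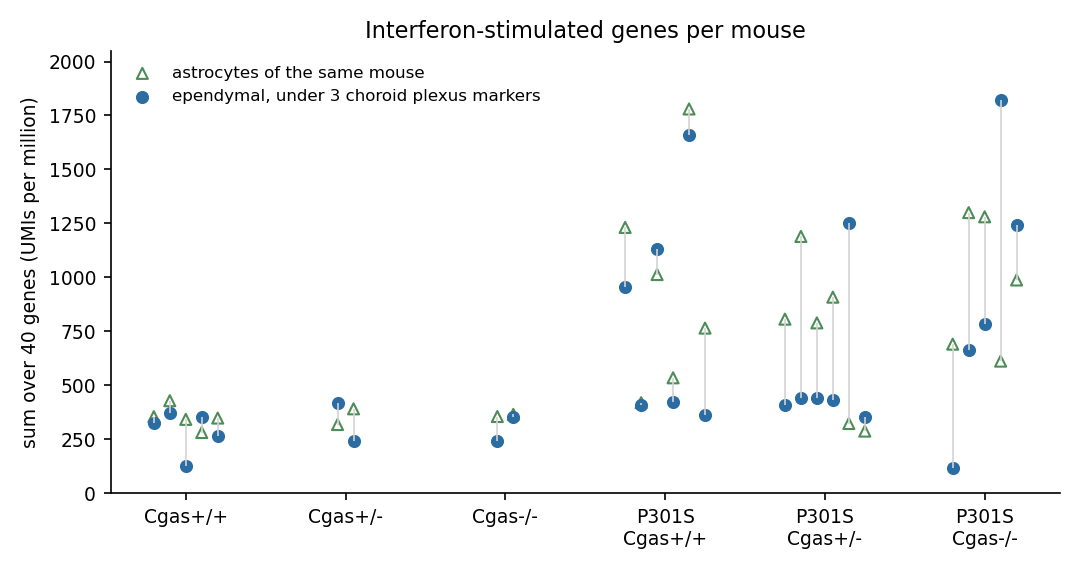
Summed level of the 40 interferon-stimulated genes in CPM in each mouse, by group, in ependymal nuclei (filled circles) and in astrocytes of the same mouse (open triangles). Ependymal nuclei of the 9 mice without P301S lie at 417 CPM or lower. P301S Cgas-/- replicate 4, at 1821, and P301S Cgas+/- replicate 5, at 1252, lie far above their own astrocytes at 612 and 323.

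Single nuclei carried much of this signal. In P301S Cgas-/- replicate 4, 1 ependymal nucleus of 33 held 191 of the mouse's 266 list UMIs (71.8%). That nucleus had 6 of the 7 rule transcripts, 46 of the 74 other cilium genes and no microglia marker. In P301S Cgas+/- replicate 5, 1 nucleus of 11 held 48 of 56 UMIs, with 43 cilium genes and no microglia marker, and in P301S Cgas-/- replicate 5, 1 of 28 held 62 of 119. With the highest nucleus of each mouse left out, the sums of these 3 mice were 546, 196 and 619 CPM, and 9 in place of 12 P301S mice lay above every mouse without P301S (69.3 to 356 CPM). P301S Cgas+/+ replicate 5 was of another kind: 249 of its 303 nuclei held list UMIs, its highest nucleus held 3.62% of the 1410, and its sum without that nucleus was 1609 CPM. Its astrocytes were at 1780.

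Counted by nucleus, with a limit of 10 list UMIs set after the values were seen, 52 of 723 ependymal nuclei of P301S mice (7.19%) and 1 of 453 of the other mice (0.221%) were above it. They came from 9 of 17 P301S mice, and without P301S Cgas+/+ replicate 5, which gave 37 of them, the share was 15 of 420 (3.57%). By group they were 45 of 477 in P301S Cgas+/+ mice, 2 of 161 in P301S Cgas+/- and 5 of 85 in P301S Cgas-/- mice. Of the 52, 42 held none of the 7 microglia markers, whose summed level in ependymal nuclei was 0 to 180 CPM without P301S and 46.0 to 304 with it. Thinned to 1000 UMIs each, which left out 10 P301S nuclei and 6 others, 51 of 713 and 2 of 447 nuclei held 4 or more list UMIs. Nuclei of 1 mouse are not replicates, so these counts carry no test.

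The start regions of the interferon genes carried another shared sequence. The core of the element to which interferon response factors bind, GAAA followed after any 2 bases by GAAA, was found on either strand at 17 of 31 listed genes with an entry (54.8%), beside 3.99% of all gene symbols and 1 of 58 cilium genes. Ddx60, an antiviral helicase whose level in ependymal nuclei was the highest of those with a match (42.4 ± 54.8 CPM), holds it in 2 places in capitals within the 130 bases before its start (chr8:61927957-61928086, plus strand, GRCm38.p6).
Ddx60: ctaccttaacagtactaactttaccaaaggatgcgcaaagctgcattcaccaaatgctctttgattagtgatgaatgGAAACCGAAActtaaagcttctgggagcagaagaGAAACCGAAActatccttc

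Hpse2, a heparanase relative, was among the genes nearest to significance in P301S mice, but it passed the low-count filter through the group where it was high, so its difference and p are not given as a test. Nearly all of its counts came from P301S Cgas+/+ mice, at 0, 25.5, 108, 110, 177 and 543.8 CPM, against 13.8 CPM or less in each of the other 20 mice. Few nuclei lay behind these values. In P301S Cgas+/+ replicate 3 all 75 Hpse2 UMIs were in 1 nucleus, in replicate 4 all 18 were in 1, in replicate 5 44 of 92 were in 1, and in replicate 6 21 of 27 were in 1. In all, 13 of 477 P301S Cgas+/+ nuclei held 213 UMIs, and 7 of 699 nuclei of the other mice held 8. The mitochondrial transcript mt-Nd4l, of a respiratory complex I subunit, was also among the genes nearest to significance. It passed the low-count filter through mice without P301S, where it was high, so its difference and p are not given as a test either. It lay at 0 to 88.1 CPM (median 62.0) in Cgas+/+ mice, at 79.1 and 121.7 in Cgas+/- and at 95.6 and 168 in Cgas-/- mice. In P301S mice it lay at 0 to 43.5 with Cgas+/+, at 11 to 52.4 with Cgas+/- and at 0 to 30.2 with Cgas-/-. The P301S mice were lower in range, and 2 of the 5 Cgas+/+ mice lay within their range. The highest values came from the Cgas+/- and Cgas-/- mice, whose libraries all had header version 3.0.2. With header version as a term the smallest adjusted p of the whole comparison was 0.9996 by edgeR.

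Sex set apart the transcripts of the sex chromosomes. Across the 4 groups with both sexes edgeR called 2 of 2832 genes (0.0706%), Xist, the transcript that silences an X chromosome, at 618 CPM in females and 1.79 in males (7.41 ± 0.28), and the Y-linked Uty at 0.235 in females and 142 in males (−5.89 ± 0.44). DESeq2 called 4. Over all gated nuclei 4 of 3502 were called (0.114%), Xist, Uty, Ddx3y and Eif2s3y. None of the listed cilium genes was among them. By edgeR, 2 dynein arm genes were lower in females at an unadjusted p under 0.05. This count was not set against that of all genes and is no result. The share of ependymal nuclei was lower in females by −0.998 on the log2 scale (permutation p = 0.107). Without marked doublets it was −1.67 (permutation p = 0.0324, adjusted p = 0.152 over 5 comparisons).

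Of the 10 genes of the sensor pathway, 6 were above 10 CPM in ependymal nuclei, and the sum over all 10 was 185.5 CPM beside 162 in astrocytes and 194 in choroid plexus nuclei. Cgas had 3 UMIs and Sting1 (Tmem173 in the files) and Trex1 none in 1176 nuclei, while the kinases Ikbke and Tbk1 were at 48.6 and 44.6 CPM. Only 1 of the 10 was abundant enough to test with P301S, and it was not called. Reactive glia genes could be tested for 4 of 14 with P301S, and none was called. Their log2 differences ran from 0.04 to 0.71, with Gfap at 29.5 CPM without P301S and 48.8 with it and Cp at 143 and 173. The low-count filter, on which P301S mice weigh more, also chose these 4 genes, so their direction is no result. None of the 12 genes for MHC class I presentation was abundant enough to test. Tapbp, which helps load peptides, was at 36.7 ± 26.5 CPM.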

How the data were processed

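Per the labels and the study's methods, frozen hippocampi were dissociated, nuclei were sorted on DAPI, and 10x 3′ v3 libraries were made. The authors deposited raw UMI counts per gene and barcode from Cell Ranger, which counted introns with exons against mm10. Their processing notes name Cell Ranger 3.1.0 and Seurat 3.0, and the file headers name 3.0.2 or 3.1.0. From these deposited counts, the rule was applied to every barcode, and counts were summed per mouse. Likely doublets were marked as the highest Scrublet scores (scanpy 1.11.5) of each library, at a rate set by its number of barcodes, and kept. Mice with at least 5 nuclei entered edgeR 4.0.16 (R 4.3.3) quasi-likelihood fits with TMM scaling, its default low-count filter and Benjamini-Hochberg adjustment. The tau, deletion, heterozygous and sex comparisons came from 1 fit of group and sex over the 22 mice of the 4 groups with both sexes, and the P301S comparison from a fit over 26 mice with sex and Cgas genotype. DESeq2 1.42.0 was an alternative. A gene was called at an adjusted p under 0.05. Named genes were those of the fixed lists and those with the smallest p in each comparison, or, between nucleus types, the largest differences with 1 sign in every mouse. Shares were compared by two-sided permutation over mice (scipy 1.17.1), exact unless 100000 resamples are stated by the word permutation alone. Tests were tried on simulated counts with known changes. Intervals and limits cover counting error only. Only 1 library came from each mouse, and replicate numbers follow accession order. The nuclei, gene lists and named genes were chosen with earlier results of these data known. Promoter sequences came from RefSeq (GRCm38.p6) and positions from the GRCm38 gene annotation.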

Additional observations from a re-analysis of the deposited data

Results flagged for a closer look

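The values below were each farther from the nearest other mouse of their group than Dixon's 95% critical value allows. In 88 groups checked 11 such values were found. The rate of about 1 in 20 groups by chance holds for independent, normally distributed values. Many of the values checked are levels of genes picked by small p in the same data, so the 11 are not set against that rate. All are for ependymal nuclei, in CPM unless stated.

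The share of ependymal nuclei was 2.13% in P301S Cgas+/+ replicate 5 and 0.172% to 0.735% in the other 5 mice of its group. The summed interferon level was 1252 in P301S Cgas+/- replicate 5 and 352 to 439 in the other 5 mice. A single nucleus held 48 of that mouse's 56 interferon list UMIs, and the level without that nucleus was 196.

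Hpse2 stood apart in 3 groups. It was at 543.8 in P301S Cgas+/+ replicate 3 (0 to 177 in the others), where 1 nucleus held all 75 UMIs, at 13.0 in P301S Cgas+/- replicate 1 and at 10.4 in P301S Cgas-/- replicate 5, with the other mice of both groups at 0. The last 2 values are 2 UMIs and 1 UMI, and where all others are at 0 any single UMI stands apart by construction, so they say nothing against chance.

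Setd5, a gene of a SET domain protein, was at 142 in Cgas+/+ replicate 4 (232 to 251 in the others) and at 639 in P301S Cgas+/+ replicate 2 (295 to 417). Syt11 was at 284 in Cgas+/+ replicate 4 (103 to 136). Nell1 was at 197 in P301S Cgas+/+ replicate 4 (0 to 71.2), Ndst3, which modifies heparan sulfate, at 232 in P301S Cgas+/- replicate 2 (31.5 to 104) and Ctif at 322 in P301S Cgas-/- replicate 3 (104 to 166).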

How the results depend on the processing

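A mouse gave 0 to 303 ependymal nuclei, and only the more abundant genes could be tested. Restriction to nuclei with fewer than 3 choroid plexus markers, the header-version fits, the interferon counts by nucleus and the split at a choroid plexus share of 1% were chosen after the data had been seen.

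Without the low-count filter, calls in ependymal (all gated) nuclei numbered 2 (2) for tau, 6 (4) for deletion, 1 (1) for heterozygous loss, 5 (8) for P301S and 10 (8) for sex. In that setting 8083 genes differed between ependymal and choroid plexus nuclei, 5012 between gated and choroid plexus nuclei, and 10123 between gated nuclei and astrocytes. It also called Adarb2 for deletion. Its calls of Hpse2, Oasl2 and mt-Nd4l for P301S are not given as tests, and the Hpse2 counts of P301S Cgas+/+ mice were 213 UMIs in 13 nuclei. The setting tests many more genes, with few counts each, and the cause of the added calls was not tested. Sex calls in ependymal nuclei were 4 by DESeq2, 5 with at least 20 nuclei per mouse and 5 without marked doublets, and 2 in place of 4 when gated nuclei were restricted to ependymal ones.

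In libraries of header version 3.0.2 alone the share difference was −2.37 for tau, 0.26 for heterozygous loss and −2.21 for P301S in gated nuclei (exact p = 0.00649, not adjusted), and −1.61 for tau and 0.17 for heterozygous loss in ependymal nuclei. In version 3.1.0 alone the P301S difference was 1.05 in gated and 0.66 in ependymal nuclei. The ependymal share followed the choroid plexus share at r = 0.63 among mice without P301S (9 mice, exact permutation p = 0.0666). Library depth and share had r = −0.43 (permutation p = 0.0257) for gated nuclei, −0.38 for ependymal nuclei and −0.35 with at least 4 of the 7 transcripts, and Spearman's rho of −0.48, −0.48 and −0.44 (permutation p = 0.0122, 0.0123 and 0.0225).

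Leaving out each mouse in turn gave 0 to 0 called genes for tau, deletion and P301S, 0 to 1 for heterozygous loss in ependymal nuclei (Hpse2, when any Cgas+/+ mouse or any of P301S Cgas-/- replicates 1 to 4 was left out, which is no result, since it entered those fits through the P301S Cgas+/+ mice and its counts lay in a few nuclei) and 0 to 0 for it in gated nuclei. For sex it gave 2 to 5 in ependymal nuclei (5 without P301S Cgas-/- replicate 1) and 4 to 7 in gated nuclei (7 without P301S Cgas+/+ replicate 3). Share differences ran from 0.041 to 1.02 for tau, −2.56 to −1.43 for deletion, −1.05 to −0.344 for heterozygous loss, −1.25 to −0.637 for P301S and −1.33 to −0.556 for sex in ependymal nuclei, and from 0.052 to 1.27, −2.82 to −1.64, −1.23 to −0.480, −1.30 to −0.629 and −1.43 to −0.631 in gated nuclei. No paired analysis was possible because the labels give no replicate numbers, and those used here follow accession order.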
